A study of Zea mays with 18 samples.

Results

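The microRNA miR827 (zma-miR827 in the tables) and its star strand miR827* (zma-miR827*) are the guide and the passenger strand cut from 1 hairpin, and maize lists a single gene for it, MIR827. Both strands were taken by name from the deposited miRNA tables. They are 2 of the 246 entries in the table for plants at sufficient phosphate, and 2 of the 207 entries in the table for plants moved to low phosphate.

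Mature miR827 guides the cleavage of transcripts for proteins with an SPX domain, a module that senses the phosphate status of the cell. In rice these targets are SPX-MFS proteins that carry phosphate across the vacuolar membrane, and in Arabidopsis the target is NLA, a ubiquitin ligase that removes phosphate transporters from the plasma membrane. In both species, phosphate shortage raises miR827. The star strand is usually degraded once the guide is loaded into an Argonaute protein, and its level is read here as a second product of the same hairpin. MiR399, which lowers the ubiquitin-conjugating enzyme PHO2 in Arabidopsis, is the other classic phosphate-responsive microRNA measured in both tables.

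The study used seedlings of the maize inbred line Q319 in hydroponics, with leaf and root sampled separately and 15 to 20 plants pooled in each biological repeat. At sufficient phosphate (SP, 1000 µM KH2PO4), leaf and root were each taken on day 0 at the 3-leaf stage and on day 8 at the 4-leaf stage, with 2 libraries per group and 8 in all. On the low-phosphate course (LP, 5 µM KH2PO4), leaf and root were each taken on days 0, 1, 2, 4 and 8, with 1 library per organ and day and 10 in all; day 0 plants had not yet been moved and day 8 plants were at the 4-leaf stage. All plants shared the sufficient-phosphate growth before transfer, and the titles and leaf stage, not a source field that reads day 0, set the group of the 2 SP root day 8 libraries.

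The SP table gives whole numbers, and its column headers carry the same std tag as those of the LP table. They were read here as raw counts from their values, since rare entries scattered between repeats near the level of counting error. The edgeR tests and the SP counting intervals rest on that reading. These counts summed to between 8528196 and 14285855 per library over the listed entries. The LP table gives reads per 1000000 clean reads (RPM), and the step between its lowest values put the depth at 12885000 to 21385000 clean reads. The lowest value of either strand was 44 reads at SP and 79 reads at LP, so counting error was modest throughout. In these whole-organ samples, fewer cells of a type and less RNA per cell cannot be told apart.

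Under low phosphate both strands were at their highest on day 8 in leaf and in root, and their courses up to then differed between the organs. In leaf, miR827 measured 48.3 RPM on day 0, 42.7 on day 1, 58.2 on day 2, 56.3 on day 4 and 816 on day 8. In root it measured 16.1 RPM on day 0, 16.6 on day 1, 33.4 on day 2, 61.0 on day 4 and 648 on day 8. Leaf values through day 4 lay within a narrow band, whereas root values climbed from day 2 on, and each day 8 library stood far above all earlier libraries of its organ. The star strand in leaf measured 23.4, 26.0, 30.2, 38.9 and 351 RPM on the 5 days. In root it measured 4.85, 10.2, 19.3, 37.1 and 275 RPM. Per clean read, each star value was above that of the day before in both organs, though leaf day 1 against day 0 was within counting error.

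**Figure D1:**
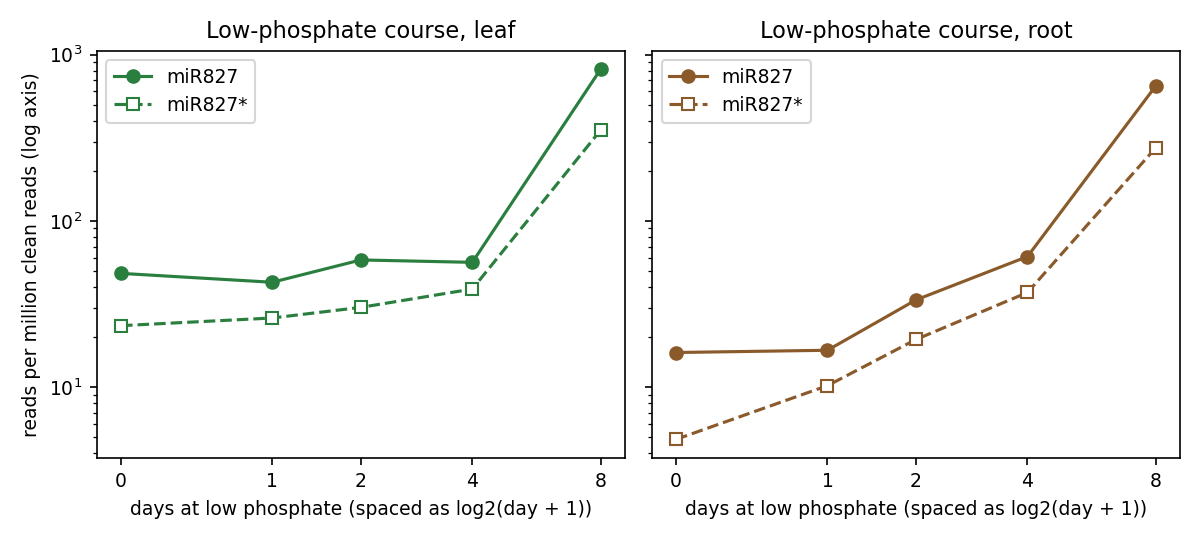
Level of miR827 (filled circles) and miR827* (open squares) in reads per 1000000 clean reads on a log axis, against days at low phosphate spaced as log2(day + 1), with leaf on the left and root on the right and 1 library per point. In leaf, miR827 stayed between 42.7 and 58.2 RPM through day 4 and was 816 on day 8, while in root it went from 16.1 to 61.0 by day 4 and to 648 on day 8.

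Against day 0 of the same organ, miR827 in leaf was 0.884-fold on day 1 (95% counting interval 0.788 to 0.992), 1.20-fold on day 2 (1.09 to 1.33) and 1.17-fold on day 4 (1.05 to 1.30). On day 8 it was 16.9-fold (15.6 to 18.3). MiR827* in leaf was 1.11-fold on day 1 (0.951 to 1.30), 1.29-fold on day 2 (1.12 to 1.49), 1.66-fold on day 4 (1.44 to 1.92) and 15.0-fold on day 8 (13.4 to 16.9). Most of the leaf rise of the guide therefore fell between the day 4 and day 8 libraries, which differed 14.5-fold (13.5 to 15.7). The same step was 9.04-fold for the star strand (8.25 to 9.92). With 1 library per day these intervals cover counting error only, and none of these folds has a replicate check.

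The scale of the leaf folds moved with the sum of all listed miRNAs. That sum over distinct entries was 1330661 RPM in the day 0 leaf library and 586283 on day 8, with 872734 to 1154674 on the days between; it can pass 1000000 because related entries share reads. Scaled to that sum, the leaf day 8 fold was 38.4 for miR827 and 34.1 for miR827*. With TMM factors, which align the bulk of the entries, these folds were 17 and 15.1. The small early leaf changes of the guide had no fixed direction: day 1 went from 0.884 to 1.35 when scaled to the sum, and day 4 from 1.17 to 0.779 with TMM factors. Nor did the leaf star strand rise at each step under these scalings. Scaled to the sum it was 1.70-fold of day 0 on day 1 and 1.48-fold on day 2. With TMM factors it was 1.21-fold on day 2 and 1.11-fold on day 4. In root the sum was 989763 to 1093768 RPM on all 5 days.

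In root, miR827 was 1.03-fold of day 0 on day 1 (0.877 to 1.21), 2.07-fold on day 2 (1.79 to 2.40), 3.78-fold on day 4 (3.30 to 4.34) and 40.2-fold on day 8 (35.5 to 45.6). MiR827* was 2.10-fold on day 1 (1.62 to 2.76), 3.99-fold on day 2 (3.12 to 5.14), 7.65-fold on day 4 (6.05 to 9.78) and 56.8-fold on day 8 (45.4 to 71.8). The root star strand was thus already above day 0 beyond counting error on day 1, when the guide was not. All root star folds rest on a single day 0 library. Per read of the entries that both tables list, its star level was below that of either SP root library of day 0. The day 1 level was near those SP levels, as given below. Whether the star strand rose by day 1 was therefore not tested. The star folds stood on a low start of 79 reads, which sets their wide intervals. From day 4 to day 8 the guide differed 10.6-fold (9.98 to 11.3) and the star strand 7.42-fold (6.83 to 8.07). Both day 8 folds were also large under the other scalings, at 36.3 and 51.4 when scaled to the listed sum and 36.5 and 51.6 with TMM factors.

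**Figure D2:**
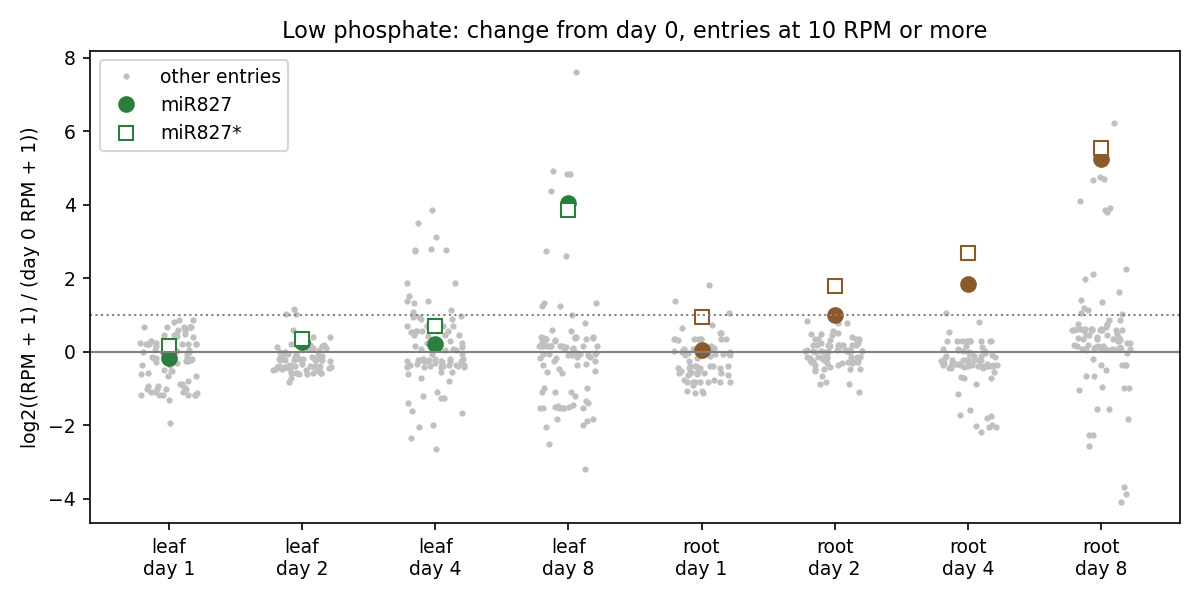
Log2 change of RPM + 1 from day 0 of the same organ for every distinct entry at 10 RPM or more in either library (grey points, spread sideways at random), with miR827 as filled circles and miR827* as open squares; the dotted line marks a 2-fold rise. In root on days 2 and 4 the 2 strands lie above the other plotted entries, which leave out scarcer ones such as miR399e, and in leaf through day 4 they lie among them.

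Among entries at 10 RPM or more in at least 1 of the 2 libraries compared, both root strands ranked high from day 2, but part of that rank came from the minimum, which miR827* met in root only through the later library. It also left out scarcer miR399 entries. On root day 2, 2 of 81 entries were at least 2-fold higher on the log2(RPM + 1) scale, or 2.47%, and these were miR827* at 1.80 and miR827 at 1.01. On root day 4, 3 of 80 entries passed that mark, or 3.75%, with miR827* at 2.70, miR827 at 1.85 and miR169i* at 1.05. With a minimum of 1 RPM, an alternative added after seeing the data, miR827* still ranked 1 on both days, of 128 and 134 entries, while miR827 ranked 6 on each day. MiR399e, at 1.34 on day 2 and 2.35 on day 4, and the near-identical miR399i and miR399j then lay between them. On root day 1, where 3.75% of entries also passed, miR827* ranked 4 of 80 at 0.94 and miR827 ranked 28 at 0.04, and neither passed. On root day 8, 21.1% of 95 entries passed, and miR827* at 5.56 and miR827 at 5.24 came after miR399b* at 6.24.

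In leaf the strands were lower in this order through day 4. The share of entries at least 2-fold higher was 0.00% of 85 on leaf day 1, 3.61% of 83 on day 2 and 15.0% of 100 on day 4, and neither strand was among them. On leaf day 2 miR827 ranked 8 and miR827* ranked 7 of 83, at 0.26 and 0.35, and with the minimum of 1 RPM 21 and 20 of 125. On leaf day 4 miR827 ranked 45 and miR827* ranked 29 of 100, while entries of miR160 and miR169k* led. On leaf day 8, 16.0% of 94 entries passed. There miR827 ranked 6 at 4.05 and miR827* ranked 8 at 3.85, after miR399b* and 4 further miR399 entries.

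A straight line in log2(day + 1) was fitted to each organ with limma on log2(RPM + 1), which takes the spread from the scatter about the lines. In root, miR827* rose with a slope of 1.68 (log2 RPM for each log2 step of day + 1; SE 0.31), at limma adjusted p = 0.0195. The root slope of miR827 was 1.59 (SE 0.42, limma adjusted p = 0.0643) and missed the 0.05 threshold. In leaf the slopes were 1.11 for miR827 (SE 0.42, limma adjusted p = 0.142) and 1.08 for miR827* (SE 0.31, limma adjusted p = 0.0759). In each organ 8 of 151 entries were called, or 5.30%, and the median slope of all entries was 0.04 in leaf and 0.03 in root. The slopes ranked 3 and 2 of 151 in root and 7 and 8 in leaf, guide before star.

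The calls turned on how time entered, on scaling, on the pseudocount and on single libraries. The root call of miR827* was lost with TMM factors (limma adjusted p = 0.0590) and with pseudocount 10 (limma adjusted p = 0.107), and miR827 in root gained a call with pseudocount 0.1 (limma adjusted p = 0.0337). With day on a linear scale all 4 slopes passed, at limma adjusted p = 0.000771 for miR827 and 0.000228 for miR827* in leaf, and 0.000115 and 2.97e-05 in root. That fit called more entries of every kind, 25 of 151 in leaf and 24 in root, against 8 in each organ with log2(day + 1). Without the root day 8 library the root slope of miR827* was 1.18 (limma adjusted p = 0.508), and without the root day 0 library it was 2.07 (limma adjusted p = 0.0708). Without the leaf day 8 library the leaf slopes were 0.13 for miR827 and 0.30 for miR827*, and without the leaf day 4 library that of miR827* was 1.26 (limma adjusted p = 0.0233). The root slope of miR827 stayed at 1.59 but passed the threshold without the leaf day 4 library (limma adjusted p = 0.0414) or the leaf day 8 library (limma adjusted p = 0.00738), which contribute to the shared spread. Without the root day 8 library it was 0.83. Leaving out 1 library at a time, the number of entries called for the root slope ranged from 0 to 18, against 8 with all libraries.

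Per clean read, leaf exceeded root early on the low-phosphate course and the organs lay closer on days 4 and 8, but the day 8 gap depended on the scaling. The leaf-to-root ratio of miR827 was 2.99 on day 0 (95% counting interval 2.59 to 3.47), 2.57 on day 1 (2.24 to 2.94), 1.74 on day 2 (1.57 to 1.92), 0.923 on day 4 (0.839 to 1.02) and 1.26 on day 8 (1.23 to 1.29). The ratio of miR827* was 4.83 on day 0 (3.76 to 6.26), 2.55 on day 1 (2.15 to 3.04), 1.56 on day 2 (1.36 to 1.79), 1.05 on day 4 (0.932 to 1.18) and 1.28 on day 8 (1.23 to 1.33). On day 4 neither strand differed between the organs beyond counting error. Per read of the entries that both tables list, the ratio of miR827 was 2.23 on day 0, 1.08 on day 4 and 2.35 on day 8, so that day 8 was as far apart as day 0. With TMM factors it was 6.14, 1.53 and 2.86 on those days. The difference of the slopes, leaf minus root, was -0.48 for miR827 (SE 0.59, limma adjusted p = 0.985) and -0.60 for miR827* (SE 0.44, limma adjusted p = 0.912). That limma test called 0 of 151 entries, or 0.00%, with 9 at an unadjusted p under 0.05, so the ratios by day describe single libraries.

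Over the 5 days together, leaf against root was 0.77 log2 units for miR827 (SE 1.13, limma adjusted p = 0.565) and 0.87 for miR827* (SE 1.08, limma adjusted p = 0.484), where 67.5% of 151 entries were called. With TMM factors these differences were 1.73 (limma adjusted p = 0.241) and 1.81 (limma adjusted p = 0.188), and the median of all entries shifted by 0.58. With day as a block, which removes the shared course, both differences passed at limma adjusted p = 0.0249. Most entries passed there too, 106 of 151 with the block and 102 without it. Without the leaf day 8 library the difference of miR827 was -0.03.

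Ordered by level, the 10 LP libraries of miR827 ran from leaf day 8 and root day 8 to root day 4, leaf days 2, 4, 0 and 1, and then root days 2, 1 and 0. Neighbours in that order were apart beyond counting error except root day 4 against leaf day 2 (ratio 1.05, 0.959 to 1.15), leaf day 2 against leaf day 4 (1.03, 0.937 to 1.14) and root day 1 against root day 0. For miR827* the order was leaf day 8, root day 8, leaf day 4, root day 4, leaf days 2, 1 and 0, and root days 2, 1 and 0. There the neighbours not apart were leaf day 4 against root day 4, and leaf day 1 against leaf day 0. Among 156 distinct entries, miR827 went from rank 58 by level on day 0 to 38 on day 8 in leaf, and from 65 to 33 in root.

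At sufficient phosphate both strands were higher in leaf than in root and showed no called change between the stages. The leaf libraries held 1021 and 1302 miR827 reads at the 3-leaf stage and 1151 and 1107 at the 4-leaf stage. The root libraries held 178 and 134, then 152 and 136. Reads of miR827* numbered 486 and 663, then 495 and 639, in leaf, and 85 and 76, then 49 and 44, in root. Every leaf library lay above every root library for both strands. Most entries differed between the organs, with 79.9% of 149 called by edgeR on day 0 and 75.8% on day 8.

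**Figure D3:**
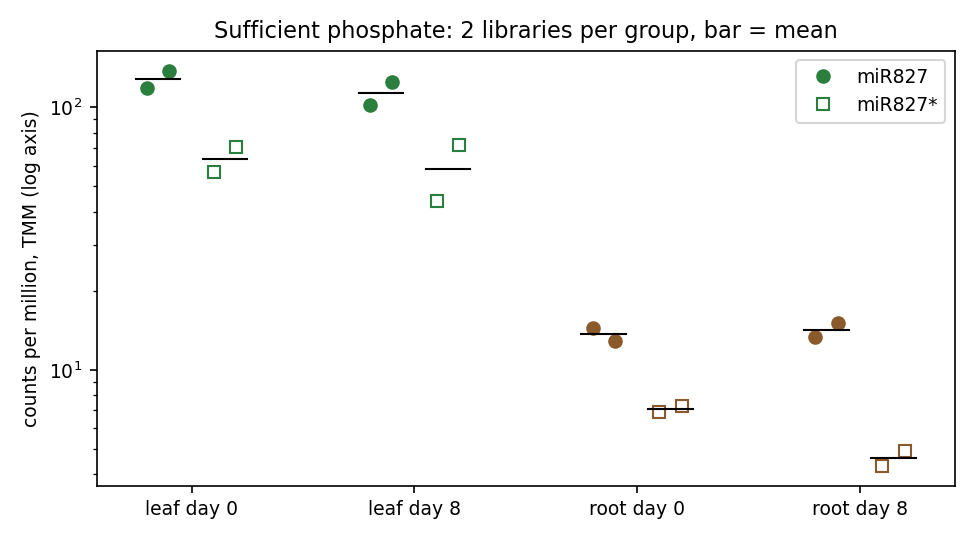
Counts per 1000000 (CPM) after TMM scaling on a log axis at sufficient phosphate for miR827 (filled circles) and miR827* (open squares), with 2 libraries per group and a bar at their mean. Leaf libraries of miR827 lie between 102 and 138 and root libraries between 12.9 and 15.1.

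In counts per 1000000 after TMM scaling (CPM), miR827 averaged 128 ± 13.8 in leaf on day 0 and 114 ± 15.9 on day 8 (SD, n = 2). In root it averaged 13.7 ± 1.14 on day 0 and 14.2 ± 1.24 on day 8 (SD, n = 2). MiR827* averaged 63.4 ± 9.80 and 58.1 ± 19.9 CPM in leaf, and 7.11 ± 0.273 and 4.59 ± 0.412 CPM in root, on days 0 and 8 (SD, n = 2). The order of groups for miR827 was leaf day 0, leaf day 8, root day 8 and root day 0, and within each organ the 2 stages overlapped. For miR827* the leaf stages overlapped. Its root values were 6.91 and 7.30 CPM on day 0 and 4.30 and 4.88 on day 8, a change not called (edgeR adjusted p = 0.339).

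On day 0, leaf exceeded root by 3.23 log2 units for miR827 (SE 0.27, edgeR adjusted p = 6.41e-07), or 9.38-fold, and by 3.16 for miR827* (SE 0.31, edgeR adjusted p = 2.32e-06), or 8.92-fold. On day 8 the differences were 3.00 for miR827 (SE 0.27, edgeR adjusted p = 1.12e-06) and 3.66 for miR827* (SE 0.32, edgeR adjusted p = 9.95e-07). Most miRNAs differed between the organs: 79.9% of 149 entries were called on day 0 and 75.8% on day 8, in both directions. Among the 149, miR827 ranked 22 for leaf excess on each day, and miR827* ranked 24 on day 0 and 15 on day 8.

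The size of the organ difference depended on the scaling. Scaled to the listed reads instead of with TMM factors, the median of all entries shifted by -0.77 log2 units on day 0 and -0.60 on day 8, and miR827 was 2.46 and 2.41, or 5.51-fold and 5.32-fold. Relative to the median of all entries, the day 0 difference of miR827 was 2.87 under either scaling. Rescaling moves all entries nearly alike, so that match was set in advance and is no check.

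Between day 0 and day 8 at sufficient phosphate, miR827 in leaf differed by -0.18 log2 units (SE 0.24, edgeR adjusted p = 0.860) and miR827* by -0.13 (SE 0.27, edgeR adjusted p = 0.860), where 10.1% of 149 entries were called. In root, miR827 differed by 0.05 (SE 0.26, edgeR adjusted p = 0.917). The root star strand differed by -0.63 (SE 0.32, edgeR adjusted p = 0.339, unadjusted p = 0.0773). The root comparison called 0 of 149 entries with edgeR, or 0.00%, with 22 at an unadjusted p under 0.05, 8 called by DESeq2 and 0 by limma. The stage change in leaf minus that in root was -0.23 for miR827 (edgeR adjusted p = 0.924) and 0.50 for miR827* (edgeR adjusted p = 0.746), where 6.04% of 149 entries were called. The root stage values rest on the placement of the 2 day 8 libraries by title.

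The 2 tables were normalized separately, so levels across them are set side by side with no test. Per 1000000 reads of the 149 distinct entries that both tables list, miR827 stood at 95.9 and 105 in the SP leaf libraries of day 0 and at 36.3 in the LP leaf library of day 0. In root the day 0 values were 20.9 and 18.5 at SP and 16.3 at LP. On day 8 the SP leaf libraries stood at 99.9 and 95.6 against 1394 at LP, and the SP root libraries at 18.9 and 21.03 against 593 at LP. Day 8 plants at sufficient phosphate thus lay near their own day 0 while those at low phosphate lay far above. The leaf day 0 libraries, all from plants at sufficient phosphate, differed between the tables by more than the SP repeats differed.

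The guide strand exceeded the star strand in 18 of 18 libraries, by a ratio between 1.45 and 3.33. Most hairpins shared this order. Among pairs with both strands present throughout, the guide was higher in every library for 31 of 47 at SP and 13 of 21 at LP. At sufficient phosphate the leaf libraries gave 2.10 and 1.96 guide reads per star read at the earlier stage and 2.33 and 1.73 at the later. The root libraries gave 2.09 and 1.76, then 3.10 and 3.09. On the low-phosphate course the ratio in leaf was 2.06, 1.64, 1.93, 1.45 and 2.32 on days 0, 1, 2, 4 and 8. In root it was 3.33 on day 0 (95% counting interval 2.58 to 4.34), then 1.63, 1.73, 1.65 and 2.36. The ratio was lowest between days 1 and 4 in both organs, and the day 8 libraries held the most reads of both strands.

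**Figure D4:**
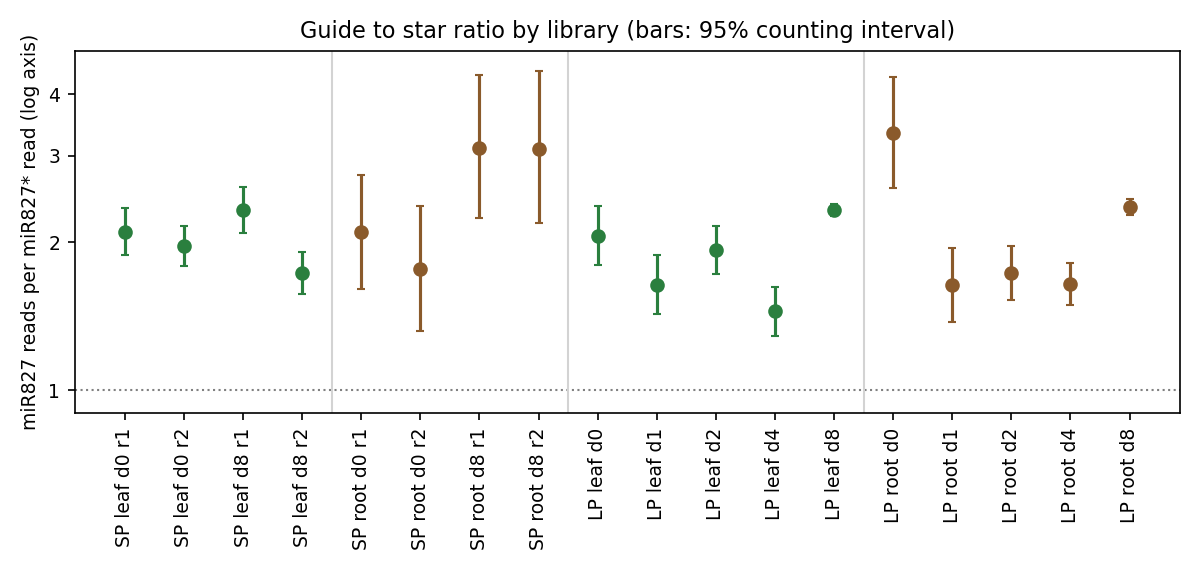
MiR827 reads per miR827* read in each of the 18 libraries on a log axis, with 95% counting intervals, leaf in green and root in brown, SP and LP libraries grouped left to right; d is day and r is repeat. All points lie above the dotted line at 1, between 1.45 and 3.33.

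The ratio was tested with limma as log2((guide + 1)/(star + 1)) over all guide and star pairs. At sufficient phosphate, leaf minus root was 0.09 on day 0 (SE 0.30, limma adjusted p = 0.812) and -0.61 on day 8 (SE 0.30, limma adjusted p = 0.128). Of 91 pairs, 48.4% and 49.5% were called on these days, so an organ difference in strand ratio was common and was not called for miR827. The stage change of the ratio was -0.02 for leaf (limma adjusted p = 0.988) and 0.68 for root (limma adjusted p = 0.457). Neither stage comparison called any pair by limma, 0.00% of 91 each, with 11 pairs in leaf and 9 in root at an unadjusted p under 0.05. Over all 4 leaf and 4 root libraries the difference was -0.27 (exact two-sided permutation p = 0.286, the smallest possible being 0.0286). That permutation ignored the stage of the libraries.

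Over the low-phosphate course the slope of the ratio was 0.03 in leaf (limma adjusted p = 0.990), where 1.72% of 58 pairs were called. In root it was -0.09 (limma adjusted p = 0.907), where limma called 0 of 58 pairs, or 0.00%, with 9 at an unadjusted p under 0.05. Leaf minus root was -0.11 (limma adjusted p = 0.677), where 44.8% of 58 pairs were called. An exact permutation test over 5 leaf and 5 root libraries gave -0.15 (two-sided p = 0.563, the smallest possible being 0.00794). It moved libraries freely between the organs and so ignored that leaf and root were matched by day. The root day 0 library, with 79 star reads, set the sign: without it the root slope was 0.24 and leaf minus root was 0.04.

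Set beside other hairpins, the ratio of miR827 was closer to even and varied less across libraries than that of the median pair. Among 47 pairs with both strands present in every SP library, 18 had summed levels within 4-fold of each other and the median ratio was 11.1, against 2.04 for miR827. Among 21 such pairs in the LP table, 9 were within 4-fold and the median was 3.14, against 2.20. The SD of the log2 ratio across libraries was 0.327 for miR827 at SP, rank 5 from the lowest of 47 (median 0.800), and 0.357 at LP, the lowest of 21 (median 0.694). These pairs were described with no test. Each strand needed only 1 count at SP or 1 RPM at LP in every library. The SD of scarce pairs therefore holds more counting error than that of miR827.

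The other phosphate-responsive microRNA in the tables, miR399, was scarcer than miR827 and was also highest on day 8 in both organs. No entry of miR2111, a further phosphate-responsive family, was among the entries analysed. MiR399e was 0.815 RPM in leaf on day 0, 3.82 on day 2, 11.6 on day 4 and 53.6 on day 8, and in root 0.184, 2.00, 5.03 and 30.8 on those days; its day 1 cells were blank. MiR399b* was listed at 0 reads on day 0 in both organs and at 195 RPM in leaf and 74.5 in root on day 8. The 9 distinct miR399 entries that passed the filter of 1 RPM in 2 libraries did so only through libraries after day 0, in which they were high. A test for a rise on entries so chosen leans toward a rise, so no slope test is given for miR399. MiR399e, miR399i and miR399j are near-identical entries that can share reads, with leaf slopes of 1.62 to 1.65 and root slopes of 1.47 to 1.49. Without the day 8 library of the organ, the slope of miR399e was 1.26 in leaf and 1.03 in root.

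On root day 4 miR827 stood at 61.0 RPM and miR399e at 5.03 RPM. At sufficient phosphate miR399e had 11 and 10 counts, then 8 and 5, in leaf at the earlier and the later stage, against 2 and 3, then 1 and 2, in root. MiR399g ran the other way, with 0, 0, 0 and 1 counts in leaf and 3, 3, 1 and 2 in root. MiR399e and miR399i met the filter of 10 counts in 2 libraries only through the leaf day 0 libraries and miR399g did not meet it, so no organ test is given for miR399.

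The entries whose course was most like that of miR827 were found by Pearson r over the 10 LP libraries on log2(RPM + 1), centred within each organ, among 106 entries with no blank cell; every miR399 entry has blanks and none was among them. MiR827 and miR827* followed each other at r = 0.99, and at 0.93 without the 2 day 8 libraries. Next to miR827 came miR172a and miR172b at 0.88, 2 family members with nearly identical values, then miR166g* at 0.81, miR164h at 0.77 and miR160d at 0.73. Next to miR827* came miR172a and miR172b at 0.83, miR171h and miR166g* at 0.77 and miR160d at 0.74. Most of these likenesses lay in the day 8 libraries: without them, r with miR827 was -0.70 for miR172a, -0.0015 for miR166g*, 0.05 for miR164h and 0.09 for miR160d, while r of miR171h with miR827* was still 0.60, rank 2 of 106. The libraries share organ, depth and course, so these values describe the profiles and carry no test.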

How the data were processed

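Small RNA from pooled maize leaf or root was sequenced as 50-nt HiSeq tags and cleaned, per the labels' protocols; aligner and build: not given in the sources used here. The deposited SP table holds whole numbers per miRNA, read as raw counts from their values. The deposited LP table holds a signal that its headers give as reads per 1000000 clean reads, with 0.01 standing for 0 reads and blank cells set here to 0.5; 13 day 1 root cells that repeat day 0 were read as blank. Entries of a family with identical values were counted once (197 of 246 SP and 156 of 207 LP entries). SP counts were tested with edgeR 4.0.16 (quasi-likelihood, TMM, at least 10 counts in 2 libraries, 1 coefficient per group). LP values were tested with limma 3.58.1 (trend, robust) on log2(RPM + 1), at least 1 RPM in 2 libraries. P-values were adjusted by Benjamini-Hochberg over all entries. DESeq2 1.42.0 served as an alternative, with R 4.3.3. LP depth came from a search for one at which all values up to 6 RPM were whole reads within 0.03, so that match is no separate check. Folds and ratios have exact (Clopper-Pearson) 95% intervals, which cover counting error only, since reads carried no molecular identifiers. The LP intervals use reads recovered with that depth, and low values were too few to check it in each library. The fits were tested on simulated data. The named entries were both miR827 strands, every miR399 and miR2111 entry past the filter, and the 5 entries most like each strand. The members and lists were chosen with earlier results of these data known.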

Additional observations from a re-analysis of the deposited data

How the results depend on the processing

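For the 2 strands, 389 alternative values were computed for 41 results, and 350 kept their direction and side of the threshold or stayed within the counting interval. Without the runs that left out 1 library, 147 of 167 did so. Leaving out a library of the other organ cannot move an LP slope itself, so the share kept does not measure how firm the results are. All 60 alternatives of the 4 SP organ differences kept their call. For the root slope of miR827*, the call was lost with pseudocount 10 (1.27), with TMM factors (1.58) and with days 4 and 8 against days 0, 1 and 2 (3.22). The root slope of miR827 passed with pseudocount 0.1 (1.62). Linear day gave called slopes per day of 0.51 and 0.48 in leaf and 0.67 for miR827 in root, and the day block called the LP organ difference at 0.77 and 0.87, guide before star where both are given. Of 151 entries, linear day called 25 in leaf and 24 in root, and the day block called 106. The root slope of the strand ratio was 0.041 with pseudocount 5. Alternatives added after seeing the data rescaled the LP folds: scaled to the listed sum, leaf miR827 was 1.35, 1.39, 1.72 and 38.4 on days 1, 2, 4 and 8, and miR827* 1.70, 2.45 and 34.1 on days 1, 4 and 8; with TMM factors, leaf day 4 was 0.779 and 1.11 and root miR827 day 4 was 3.13. Leaving out 1 library at a time, slopes ranged from 0.30 to 1.64 for miR827* in leaf, 1.18 to 2.07 for miR827* in root and 0.83 to 2.31 for miR827 in root; leaf minus root slopes of miR827 from -1.46 to 0.28; LP leaf against root of miR827 from -0.029 to 1.67; SP stage changes of miR827* in leaf from -0.53 to 0.19, of miR827 in root from -0.10 to 0.053 and of miR827 in leaf minus root from -0.38 to 0.0075. The ratio ranged from -0.19 to 0.035 (LP leaf against root), -0.17 to 0.17 (slope in leaf), -0.35 to 0.24 (slope in root), -0.037 to 0.21 (SP leaf against root on day 0) and -0.23 to 0.19 (SP leaf stage). The cause was not tested. Counts of called entries moved most for the LP slopes (8 in each organ, leaf 0 to 25, root 0 to 24), the SP stage changes (15 in leaf, 0 to 21; 0 in root, 0 to 19; 9 for leaf minus root, 0 to 20) and the LP ratio slopes (1 in leaf, 0 to 2; 0 in root, 0 to 7). The replicate numbers at SP were not treated as pairs. Replicate differences correlated at -0.18 to 0.31 between groups, highest for leaf and root on day 0, so a pairing there is not excluded. With the replicate block the SP organ difference of miR827 was 3.22 on day 0 and no call of either strand changed. The block left 1 entry called for the stage change in leaf minus that in root. EdgeR on whole reads recovered from the LP values was not run, because low values were too few to check each library. With 1 library per LP day and 2 per SP group, the spread, not the depth, limits the tests.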
